A study of Alligator mississippiensis with 17 samples.

Results

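The epithelial sodium channel subunit genes SCNN1A, SCNN1B, SCNN1G and SCNN1D were followed through the tooth cycle of the American alligator, a reptile that replaces its teeth throughout life. They were taken from the deposited expression table by symbol, and all 4 were present among 20703 genes. SCNN1D was the reason for the choice, because it was known to be far higher in replacement teeth than in early growth dental lamina. Its values are therefore given as a description without a test, and the question asked was whether the other subunits followed it. The libraries were bulk RNA sequencing of dissected tissue from untreated, laboratory-raised alligators labelled as one year old. The dental lamina, the epithelial band from which each new tooth buds, was taken from 5 samples before a tooth bud starts (pre-initiation, PIS), from 3 samples as it starts (initiation, IS) and from 4 samples as it first grows (early growth, EG). A further 5 samples were of the replacement tooth itself (RT). All groups shared the same raising temperature, extraction and library kit, and the labels do not say whether replicates came from separate animals. The p-values thus measure the spread between these samples, which may be technical in part.

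The epithelial sodium channel lets sodium enter absorptive epithelial cells through their apical membrane, in the kidney, the airway and the sweat gland for example. In mammals the channel is a heteromer of alpha, beta and gamma subunits, encoded by SCNN1A, SCNN1B and SCNN1G. The delta subunit, encoded by SCNN1D, can take the place of alpha and has been studied mainly in human cells and frog oocytes. In the kidney, aldosterone acting through the kinase SGK1 raises channel number at the membrane, furin and related proteases cleave and activate the channel, and the sodium pump moves the entering sodium out across the basolateral side.

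SCNN1D, the delta subunit gene, was the most abundant of the family wherever the family was abundant at all. Levels are given as RPKM, reads scaled to the length of the gene model and to the mapped reads of the library, so genes can be set side by side per length. The pre-initiation libraries 1 to 5 held 0.303, 0.119, 0.634, 3.74 and 0 RPKM of SCNN1D, and the 3 initiation libraries held 0.0153, 0.0316 and 0.103 RPKM. The early growth libraries held 84.7, 107, 106 and 39.4 RPKM, and the replacement teeth held 919, 3094, 5430, 3479 and 3897 RPKM. Every replacement tooth lay above every early growth library, and every early growth library lay above every pre-initiation and initiation library. Pre-initiation and initiation overlapped, with pre-initiation library 4 standing highest of the 8.

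The mean SCNN1D level was 0.959 ± 1.57 RPKM at pre-initiation, 0.0499 ± 0.0464 RPKM at initiation, 84.4 ± 31.7 RPKM at early growth and 3364 ± 1629 RPKM in replacement teeth (SD, n = 5, 3, 4 and 5). Within single replacement teeth SCNN1D ranked 18, 5, 3, 4 and 4 of all 20703 genes by RPKM, so it was among the most abundant transcripts of the tooth. In the 4 early growth libraries it ranked 348, 232, 243 and 824. On the log2(RPKM + 0.5) scale the RT minus EG difference was 5.20, the second greatest among 12904 genes tested, and the RT minus PIS difference of 11.46 was the greatest. The EG minus PIS difference was 6.25, and the IS minus PIS difference was -0.92, or -0.41 without pre-initiation library 4. These SCNN1D differences are the pattern the gene was chosen for.

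The low values could be read in terms of reads. RPKM values of SCNN1D, SCNN1B and SCNN1G fell on whole multiples of a smallest step, within 1.07% for multiples up to 20, as single counted reads would give. Larger multiples did not all lie near whole numbers. Those of SCNN1B were 60.5 and 43.6 in replacement teeth 1 and 2, so read numbers over 20 are approximate. If the step is 1 read, SCNN1D rested on 0 to 247 reads in pre-initiation libraries and 1 to 6 reads in initiation libraries. It rested on about 3878 to 10148 reads in early growth libraries and about 88304 to 501419 reads in replacement teeth, which is 0.239% to 1.41% of the alignments of those teeth. Ratios against the initiation stage for SCNN1D therefore rest on a handful of reads, whereas the step between early growth and replacement tooth rests on about 3878 reads or more in each library. SCNN1A values did not form whole multiples even where these were low, such as 12.6 in pre-initiation library 1, and no read numbers were derived for them.

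**Figure D1:**
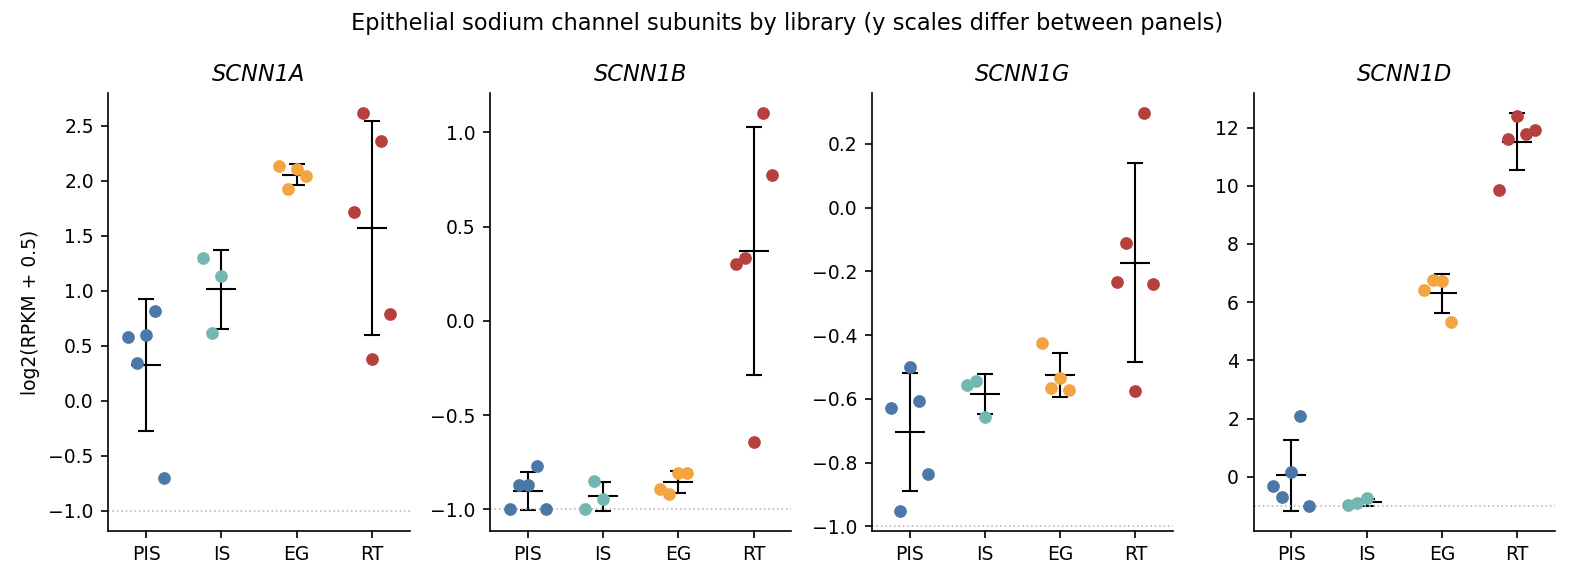
Level of each subunit gene on the log2(RPKM + 0.5) scale, with 1 point per library, by group; the y scales differ between panels. SCNN1D separates replacement tooth, early growth and the 2 earlier stages without overlap between these levels, SCNN1A is spread widely over the replacement teeth, and SCNN1B is higher in all 5 replacement teeth than in any early growth library.

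SCNN1A, the alpha subunit gene that carries the channel in most mammalian epithelia, did not follow SCNN1D into the replacement tooth. It stood at 0.996, 0.769, 1.01, 1.26 and 0.114 RPKM in pre-initiation libraries and at 1.96, 1.03 and 1.69 RPKM in initiation libraries. Early growth libraries held 3.89, 3.29, 3.81 and 3.61 RPKM, and replacement teeth held 2.78, 5.61, 0.798, 4.63 and 1.23 RPKM. The early growth libraries lay close together, and the replacement teeth spread to both sides of them, with teeth 2 and 4 above and teeth 1, 3 and 5 below.

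The mean SCNN1A level was 3.01 ± 2.09 RPKM in replacement teeth and 3.65 ± 0.268 RPKM at early growth (SD, n = 5 and 4). The RT minus EG log2 difference was -0.48 ± 0.40 (SE), with a 95% interval of -1.32 to 0.36 and an adjusted p of 0.320 by limma, in a comparison in which 43.9% of the genes tested were called. The median of all genes tested was -0.37 in this comparison, near the SCNN1A value. The SCNN1A interval leaves room for a modest difference in either direction, and its upper end lies far under the 5.20 of SCNN1D. The direction rested on replacement teeth 3 and 5, which held the lowest SCNN1A: without both the difference was 0.18 (adjusted p = 0.694, limma), a sign that follows in part from leaving out the lowest values.

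Within the dental lamina SCNN1A increased between pre-initiation and early growth. It averaged 3.65 RPKM at early growth and 0.830 ± 0.436 RPKM at pre-initiation (SD, n = 5), a log2 difference of 1.72 ± 0.27 (SE, 95% interval 1.14 to 2.31, adjusted p = 0.000471, limma). The groups did not overlap. In this comparison 50.5% of all genes tested were called and 42.9% were called higher. With libraries scaled by median ratios 32.3% were called and 17.3% were called higher. At initiation the mean was 1.56 ± 0.481 RPKM (n = 3), between the other stages, and neither step alone passed the test. The EG minus IS difference was 1.04 ± 0.31 (95% interval 0.37 to 1.71, adjusted p = 0.113), with no overlap between groups, where 2.15% of genes were called. This call turned on the setting: with early growth and initiation alone in the fit the adjusted p was 0.00888, and without pre-initiation library 5 it was 0.0107. The IS minus PIS difference was 0.69 ± 0.30 (95% interval 0.05 to 1.33, adjusted p = 0.101), where 25.0% of genes were called. Replacement teeth were higher in SCNN1A than pre-initiation lamina by 1.24 ± 0.38 on the log2 scale (95% interval 0.45 to 2.04, adjusted p = 0.0140), with overlapping groups and 41.5% of genes called. That call was lost, at adjusted p = 0.0522, when only these groups entered the fit.

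SCNN1B, the beta subunit gene, was close to undetected throughout the lamina and rose in replacement teeth. Its values were 0, 0.0461, 0.0463, 0.0876 and 0 RPKM at pre-initiation, and 0, 0.0554 and 0.0200 RPKM at initiation. They were 0.0397, 0.0285, 0.0726 and 0.0709 RPKM at early growth, and 0.733, 0.760, 0.140, 1.64 and 1.21 RPKM in replacement teeth. The lowest replacement tooth, library 3, lay above the highest lamina library. If the smallest step is 1 read, these are 0 to 6 reads in each lamina library and about 11 to 137 reads in each replacement tooth.

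SCNN1B reached 1 RPKM in only 2 libraries, short of the 3 libraries asked of a gene in the filtered fit, so it was tested in the fit without a filter. It averaged 0.897 ± 0.564 RPKM in replacement teeth and 0.0529 ± 0.0222 RPKM at early growth (SD, n = 5 and 4). The RT minus EG log2 difference was 1.23 ± 0.23 (SE, 95% interval 0.74 to 1.72, adjusted p = 0.00299, limma), where 25.5% of all 20703 genes were called and 3.57% were called higher. The RT minus PIS difference was 1.28 ± 0.22 (adjusted p = 0.000444), where 28.4% of genes were called and 13.9% were called higher. The pseudocount of 0.5 holds these log2 values down, since the lamina values are far under it. Between lamina stages no difference in SCNN1B passed the test: EG minus IS was 0.07 (95% interval -0.06 to 0.21, adjusted p = 0.684) and EG minus PIS was 0.05 (95% interval -0.07 to 0.16, adjusted p = 0.548). In that unfiltered fit 1.73% of genes were called for EG versus IS, 32.8% for EG versus PIS and 13.9% for IS versus PIS. These comparisons rest on few reads, and the size of difference that could be detected at this level was not measured.

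SCNN1G, the gamma subunit gene, stayed under 1 RPKM in all 17 libraries. It held 0.146, 0.0173, 0.208, 0.157 and 0.0606 RPKM at pre-initiation and 0.180, 0.186 and 0.134 RPKM at initiation. Early growth libraries held 0.245, 0.176, 0.190 and 0.172 RPKM, and replacement teeth held 0.351, 0.426, 0.171, 0.727 and 0.347 RPKM. Replacement teeth 1, 2, 4 and 5 lay above every lamina library, and tooth 3 lay just under the lowest early growth library. If the smallest step is 1 read, these are 1 to 8 reads in each pre-initiation library and 6 to 9 in each initiation library. Early growth libraries held 11 to 14 reads and replacement teeth about 12 to 54.

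The mean SCNN1G level was 0.405 ± 0.203 RPKM in replacement teeth and 0.196 ± 0.0337 RPKM at early growth (SD, n = 5 and 4). The RT minus EG log2 difference of 0.35 ± 0.13 (SE, 95% interval 0.07 to 0.63) had an adjusted p of 0.0607 in the unfiltered limma fit. In that comparison 25.5% of genes were called and 3.57% were called higher. The SCNN1G difference passed without replacement tooth 3 (0.45, adjusted p = 0.0222) and after median-ratio scaling of the libraries (0.48, adjusted p = 0.0362). Against pre-initiation lamina SCNN1G rose in replacement teeth, by 0.53 ± 0.12 (95% interval 0.27 to 0.80, adjusted p = 0.00441), although the groups overlapped. There 28.4% of genes were called and 13.9% were called higher, and the pre-initiation values rest on few reads. The EG minus PIS difference was 0.18 (95% interval -0.01 to 0.37, adjusted p = 0.133), and the EG minus IS difference was 0.06 (adjusted p = 0.864).

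**Figure D2:**
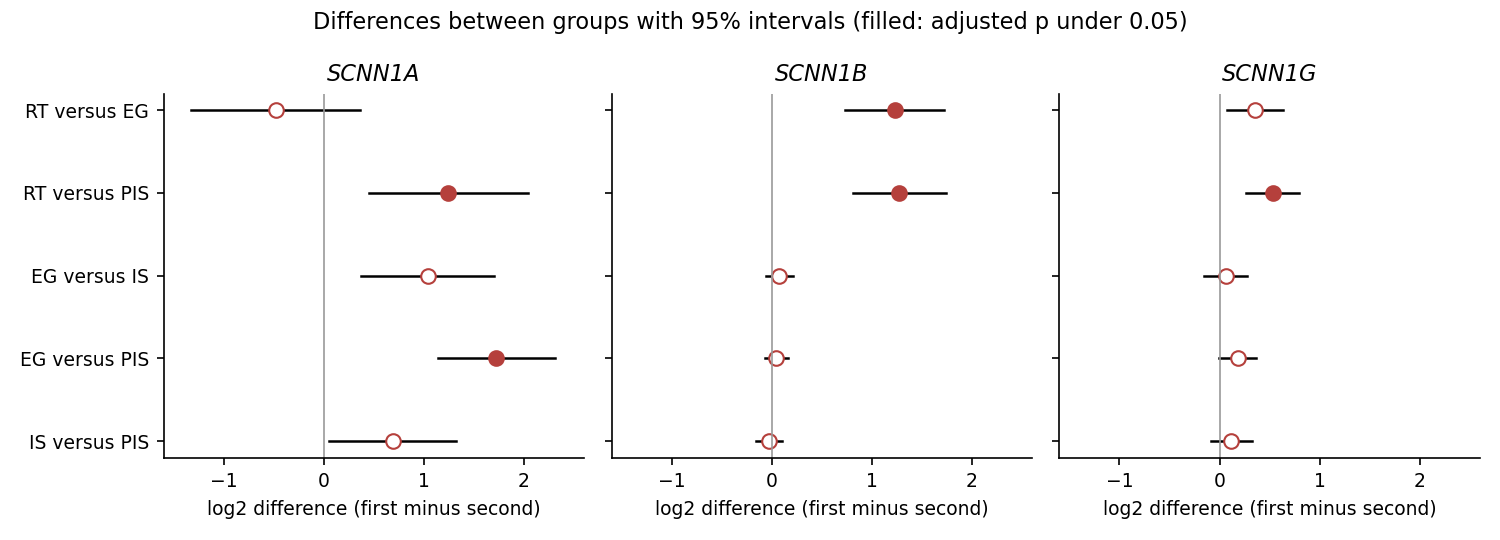
Log2 differences of SCNN1A, SCNN1B and SCNN1G between groups, first named minus second named, with 95% intervals from limma; filled points have an adjusted p under 0.05. SCNN1A is filled for EG versus PIS (1.72) and RT versus PIS (1.24), SCNN1B for RT versus EG (1.23) and RT versus PIS (1.28), and SCNN1G for RT versus PIS (0.53); SCNN1D is not plotted because it was chosen for its differences.

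The comparisons with replacement teeth share those 5 libraries, and those with pre-initiation or early growth share their lamina libraries, so they are not independent of each other. Set side by side, the RT minus EG log2 differences were -0.48 for SCNN1A, 1.23 for SCNN1B, 0.35 for SCNN1G and 5.20 for SCNN1D. The EG minus PIS log2 differences were 1.72 for SCNN1A, 0.05 for SCNN1B, 0.18 for SCNN1G and 6.25 for SCNN1D. The pseudocount of 0.5 holds down differences where levels lie near or under it, so these sizes cannot be compared between subunits. SCNN1B averaged 0.0529 RPKM at early growth and 0.897 RPKM in replacement teeth, and SCNN1D averaged 84.4 and 3364 RPKM. The comparisons that passed differed between subunits, but no test was run between subunits. SCNN1A passed for EG versus PIS and RT versus PIS. SCNN1B passed for RT versus EG and RT versus PIS, and SCNN1G for RT versus PIS.

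The mix of subunit transcripts turned over along the cycle, and SCNN1D sets most of that turnover. The summed level of the 4 subunits was 1.94 RPKM at pre-initiation, 1.80 RPKM at initiation, 88.3 RPKM at early growth and 3368 RPKM in replacement teeth. SCNN1D made up 27.6 ± 27.3%, 2.81 ± 2.31%, 94.9 ± 2.61% and 99.8 ± 0.155% of that sum in the same order (SD). SCNN1A made up 58.5% at pre-initiation and 85.6% at initiation, 4.79% at early growth and 0.132% in replacement teeth. The shares at pre-initiation and initiation are shares of a sum near 2 RPKM and vary widely between libraries. Among SCNN1A, SCNN1B and SCNN1G alone, SCNN1B held 21.9 ± 13.0% of the summed RPKM in replacement teeth and 1.35 ± 0.539% at early growth, whereas SCNN1A held 67.3 ± 14.3% in replacement teeth and 93.6 ± 0.405% at early growth.

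**Figure D3:**
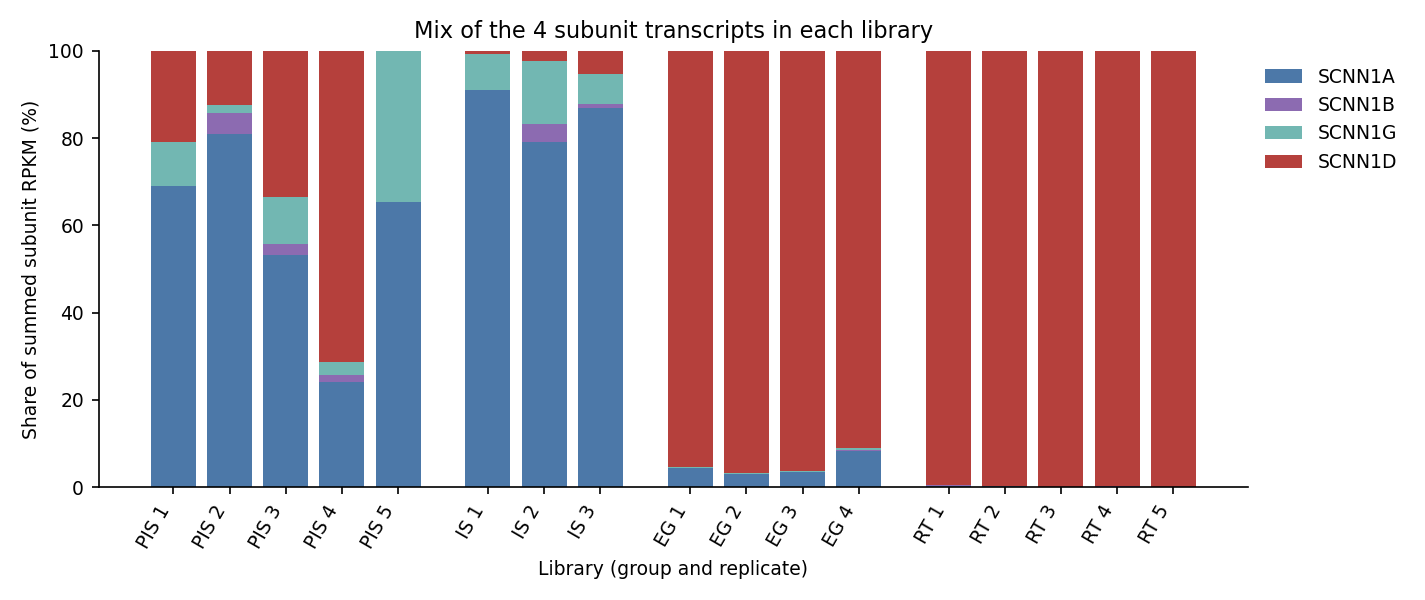
Share of the summed RPKM of the 4 subunits that each gene held, 1 bar per library, in the order PIS, IS, EG and RT. SCNN1A fills most of the bar at initiation (85.6% on average), and SCNN1D fills nearly all of it at early growth (94.9%) and in replacement teeth (99.8%).

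The labelled tissues were set against marker genes of the cells they could hold. In bulk tissue, fewer cells of a type and less RNA per cell cannot be told apart. The 6 enamel epithelium markers found in the table (AMBN, ENAM, MMP20, AMTN, SP6 and SLC24A4) summed to 81.3 to 5975 RPKM in replacement teeth and 288 to 2621 RPKM at early growth, against 11.2 to 59.6 RPKM at initiation and 0.907 to 25.6 RPKM at pre-initiation. SLC24A4 went the other way, averaging 0.990 RPKM at pre-initiation, 0.722 at initiation, 0.395 at early growth and 0.0462 in replacement teeth. It did not pass the filter. AMELX, KLK4 and ODAM were not listed under those symbols. Of the 5 enamel markers tested for RT versus EG 1 was higher, AMTN, and none lower, where 4.89% of all genes were called higher. AMTN held 17.8 to 1833 RPKM in replacement teeth and 0.432 to 1.84 RPKM at early growth, without overlap. It passed the filter only with the replacement teeth, so its call is no independent one. The 8 epithelium markers found summed to 99.4 to 609 RPKM in replacement teeth and 814 to 1045 RPKM at early growth. In the RT versus EG comparison as deposited 5 of the 8 fell, where 39.0% of all genes were called lower. Median-ratio scaling brought that share to 6.37%, and the markers were not counted under that scaling. The 7 odontoblast and bone markers found summed to 3885 to 31413 RPKM in replacement teeth and 1600 to 2558 RPKM at early growth, and 5 of the 7 rose, where 4.89% of all genes were called higher. Lower calls were also made for 4 of 8 mesenchyme markers and 4 of 6 nerve and Schwann cell markers, beside the same 39.0% of all genes. Higher calls were made for 1 marker of each list. These were DCN (0.87, adjusted p = 0.00732, limma) and NEFM (2.52, adjusted p = 8.0e-05). NEFM passed the filter only through replacement teeth, so its call is no independent one. The summed epithelium level was lower in every replacement tooth than in any early growth library, and the summed odontoblast and bone level was higher in every replacement tooth.

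Across the replacement teeth, SCNN1D did not take the order of the enamel markers. The enamel marker sum was 2218, 5975, 371, 3469 and 81.3 RPKM in teeth 1 to 5, so teeth 3 and 5 had the least enamel marker RNA and the most SCNN1D. The odontoblast and bone marker sum was 3885, 6736, 22172, 15046 and 31413 RPKM, and tooth 1, lowest in that sum, was also lowest in SCNN1D. At early growth, library 4 had the highest enamel marker sum, 2621 RPKM, and the lowest SCNN1D, 39.4 RPKM. The odontoblast and bone marker sum of early growth libraries 1 to 4 was 1600, 2558, 2472 and 2068 RPKM, lowest in library 1. At pre-initiation, library 4 was highest of its group in both the enamel marker sum, 25.6 RPKM, and SCNN1D, 3.74 RPKM. PHEX, an endopeptidase gene of mineralizing cells that was picked out of the marker list after its values were seen, held 96.6, 249, 464, 220 and 301 RPKM in replacement teeth and 51.5, 45.5, 42.7 and 21.8 RPKM in early growth libraries. Its lowest and highest replacement teeth, and its lowest early growth library, were those of SCNN1D. The part that cell composition plays in the SCNN1D levels was not tested.

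SCNN1A was set beside the epithelium markers. EPCAM, which encodes an epithelial adhesion molecule, held 96.4, 182, 18.1, 70.1 and 25.4 RPKM in replacement teeth 1 to 5 and 129 to 179 RPKM at early growth. Teeth 3 and 5 were lowest in both EPCAM and SCNN1A and tooth 2 was highest in both, but tooth 4 had less EPCAM than tooth 1 and more SCNN1A. The sum of all 8 epithelium markers was 436, 609, 99.4, 373 and 445 RPKM in teeth 1 to 5, so tooth 5 was not low in the sum. KRT14, a basal keratin gene, stood at 299 RPKM in tooth 5 and at 24.7 to 47.8 RPKM in the other teeth. Pre-initiation library 5 was lowest of its group in EPCAM (16.2 RPKM) and in SCNN1A (0.114 RPKM), and its epithelium marker sum was 104 RPKM, against 482 RPKM or more in the other 4. Without that library SCNN1A was still higher at early growth than at pre-initiation, by 1.47 (adjusted p = 0.000164, limma), and higher in replacement teeth than at pre-initiation, by 0.99 (adjusted p = 0.0391). Of the 8 epithelium markers 7 rose in the EG versus PIS comparison, where 42.9% of all genes were called higher. In the same comparison 5 of 8 mesenchyme, 5 of 8 endothelium and 4 of 5 nerve and Schwann cell markers fell, where 7.58% of all genes were called lower. The part of these markers in the SCNN1A change was not tested. Without replacement teeth 3 and 5 SCNN1A was higher in replacement teeth than at pre-initiation by 1.90 (adjusted p = 0.000282), a rise over 1.24 that follows from leaving out the lowest values.

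SCNN1B and SCNN1G were highest in replacement tooth 4 and lowest in tooth 3. Tooth 4 also held the most AMTN, the gene of the maturation-stage enamel protein amelotin, at 1833 RPKM, against 230, 17.8, 107 and 29.4 RPKM in teeth 1, 2, 3 and 5. AMTN was singled out after its values were seen, and AMBN, ENAM, MMP20 and SP6 were highest in tooth 2, at 4261, 1208, 317 and 172 RPKM. The red blood cell marker sum was also highest in tooth 4, at 920 RPKM. Tooth 3 had the lowest epithelium marker sum of all libraries, 99.4 RPKM. Tooth 5 stood apart in markers of the oral surface keratinocyte, whose sum was 97.3 RPKM there and at most 19.7 RPKM in any lamina library. Most of that sum was KRT4, a keratin of wet stratified epithelium, at 73.0 RPKM. SCNN1B rose in replacement teeth against early growth also without teeth 3 and 5, by 1.43 (adjusted p = 0.000124).

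**Figure D4:**
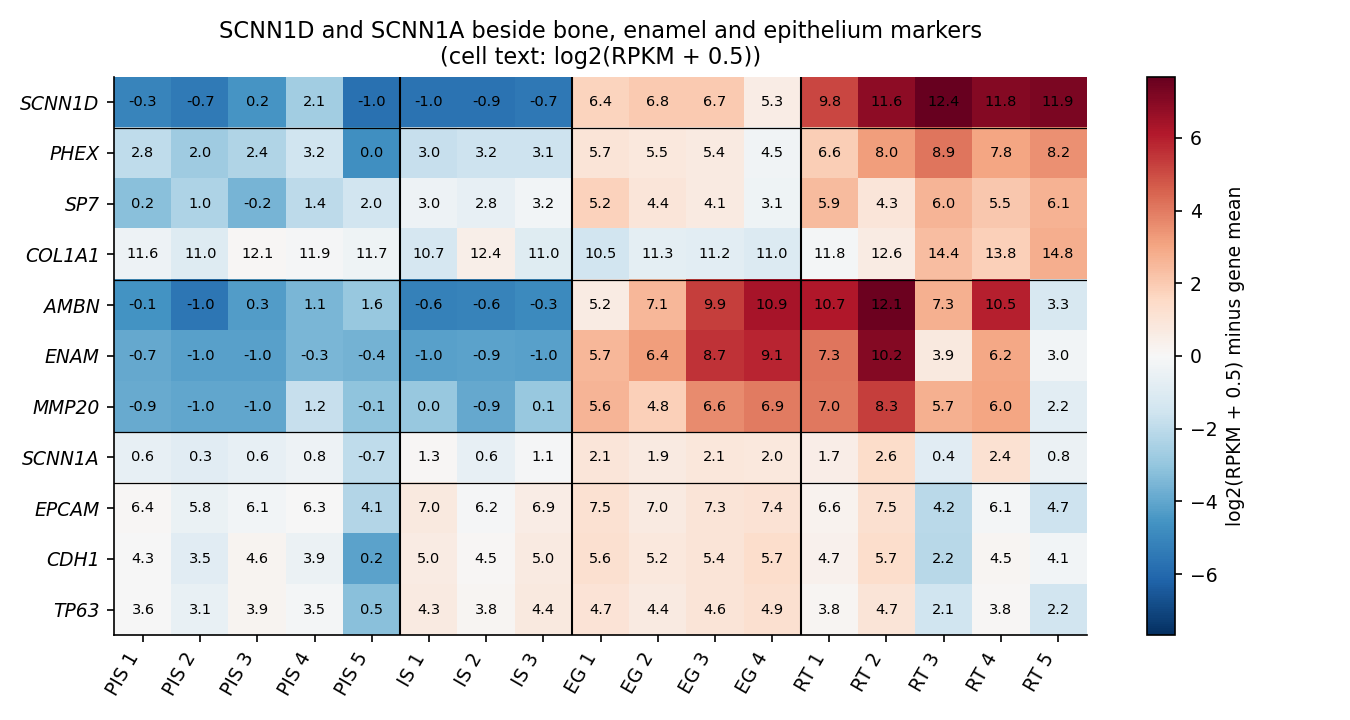
SCNN1D and SCNN1A beside markers of mineralizing cells (PHEX, SP7, COL1A1), enamel epithelium (AMBN, ENAM, MMP20) and epithelium (EPCAM, CDH1, TP63) in all 17 libraries; colour shows log2(RPKM + 0.5) minus the mean of the gene, and the cell text gives log2(RPKM + 0.5). SCNN1D stays high in replacement teeth 3 and 5, where AMBN, EPCAM and SCNN1A are lower than in the other replacement teeth. The markers shown are picks from longer lists, and members left out differ from them. For RT versus EG neither BGLAP (-1.35, adjusted p = 0.146, limma) nor IBSP (1.13, adjusted p = 0.360) passed. AMTN was higher in every replacement tooth than at early growth, and KRT14 was highest of the replacement teeth in tooth 5.

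Values of 5 genes that flank the subunit genes were read beside them, in a comparison in which 4.89% of all genes were called higher and 39.0% lower. The median of all genes tested was -0.37 there. The flanking genes were not read after median-ratio scaling, which brought the share called lower to 6.37%. The order of genes was taken from RefSeq assembly rAllMis1 and may differ from that of the authors' annotation. SCNN1D lies beside UBE2J2, a ubiquitin-conjugating enzyme gene, which held 7.86 ± 0.860 RPKM in replacement teeth and 9.59 ± 0.709 RPKM at early growth (SD, n = 5 and 4), a log2 difference of -0.28 (adjusted p = 0.0962, limma). Its neighbour on the other side, LOC102571295, was not found in the table, and the gene beyond that, ACAP3, fell in replacement teeth by 1.04 (adjusted p = 0.00162). SCNN1B and SCNN1G lie next to each other. On the SCNN1B side, COG7, which encodes a Golgi tethering subunit, fell in replacement teeth by 0.60 (adjusted p = 0.00588). On the SCNN1G side, USP31 differed by -0.13 (adjusted p = 0.458). TAPBPL, beside SCNN1A, differed by -0.07 (adjusted p = 0.837). One RPKM value per gene cannot show which stretch of a gene model holds the reads, and whether the counting used strand is not given in the sources used here.

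The genes most alike to SCNN1D in level across libraries were SLC13A5, CLDN11, LOXL4, ANKFN1, FAM189A1, SLC45A3, ENPEP and GDPD5. Their Pearson correlations with SCNN1D over 17 libraries on the log2(RPKM + 0.5) scale lay between 0.975 and 0.986. SLC13A5, the citrate transporter, averaged 34.1 ± 13.8 RPKM in replacement teeth, 5.04 ± 2.13 RPKM at early growth, 0.194 RPKM at initiation and 0.142 RPKM at pre-initiation. CLDN11, a tight junction claudin gene, held 12.5 to 42.5 RPKM in replacement teeth, 5.59 to 12.4 RPKM at early growth, 0.164 to 0.418 RPKM at initiation and 0.389 to 3.21 RPKM at pre-initiation. ENPEP, which encodes an aminopeptidase, averaged 36.2 ± 17.1 RPKM in replacement teeth and 9.45 ± 2.89 RPKM at early growth. All libraries enter these correlations together, so they reflect mainly the steps between groups, and a Spearman ranking or the 9 early growth and replacement tooth libraries alone each shared 1 of the 8 names. For SCNN1A the most alike were MPZL3, C18H17ORF62L, CCDC180 and PGD, with correlations of 0.942 to 0.949. The Spearman ranking shared none of these 4 names.

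The acid-sensing channels belong to the same degenerin superfamily as the epithelial sodium channel, and some but not all of them open on extracellular acid. Of the 5 genes listed, 4 were found and 2 passed the filter, ASIC4 and ASIC1. Within the lamina ASIC4 reached 1 RPKM only in 3 early growth libraries, and ASIC1 reached it only in 3 pre-initiation libraries. They passed the filter through the group where they were high, so their lamina values are given without a test. ASIC4 held 0.816 to 3.20 RPKM at early growth and 0.185 to 0.299 RPKM at initiation. In replacement teeth it held 0.238 to 9.09 RPKM, and its RT minus EG difference of -0.36 did not pass (adjusted p = 0.581). ASIC1, a neuronal acid sensor in mammals, held 0.0121 to 0.261 RPKM in replacement teeth, 0.125 to 0.587 RPKM at early growth, and 0.776 to 1.86 RPKM at pre-initiation. ASIC3 and ASIC5 stayed at or under 0.143 RPKM in every library.

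The regulators and transport partners of the channel were read from 5 lists of 66 genes, of which 53 were found and 38 were tested in the fit with replacement teeth. In the RT versus EG comparison 5 were higher and 12 were lower, which is 44.7% of those tested, beside 43.9% of all genes tested, of which 4.89% were called higher and 39.0% lower. The median gene itself differed by -0.37 in this comparison. Scaling the libraries by median ratios brought that median to -0.01. With it 6 regulators were higher and 3 lower, beside 15.7% of all genes called, 9.38% higher and 6.37% lower. Those that passed in the same direction under both scalings were SGK1, USP2, WNK4, FKBP5 and ATP1B1, all higher, and PLAU, NR3C1 and HSD11B2, all lower. USP2 passed the filter only through 3 replacement teeth, so its call is no independent one. Without replacement tooth 5 alone 3 were higher. Without replacement teeth 3 and 5, SGK1 and ATP1B1 were higher, and PLAU, NR3C1, HSD11B2 and TSC22D3 were lower. There USP2 no longer passed the filter and was not tested. The shares of all genes called higher or lower in these refits are not given here, so these calls were not set beside them.

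SGK1, the kinase that protects the channel from ubiquitin-driven removal, rose in replacement teeth. It held 36.5, 66.1, 98.0, 136 and 90.5 RPKM in replacement teeth and 36.7, 19.9, 31.6 and 28.7 RPKM in early growth libraries, a log2 difference of 1.44 ± 0.28 (SE, adjusted p = 0.00184, limma). The groups overlapped only through replacement tooth 1, which was also the tooth lowest in SCNN1D. Among the 13 tested genes of the ubiquitin, kinase and trafficking list, 3 rose and 4 fell, beside 4.89% of all genes called higher and 39.0% lower. None of the 4 lower calls held with median-ratio scaled libraries, and all 3 higher calls did. Of all genes 9.38% were called higher and 6.37% lower with that scaling. USP2, a deubiquitinase gene and 1 of the 3, held 0.947, 0.840, 1.83, 1.75 and 1.34 RPKM in replacement teeth and 0.171 to 0.288 RPKM in early growth libraries, without overlap. TSC22D3, which encodes the glucocorticoid-induced leucine zipper, fell by 0.90 (adjusted p = 0.00368), a call that median-ratio scaling removed. NEDD4L, the ubiquitin ligase gene best known for removing the channel, was not listed under that symbol.

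ATP1B1, a beta subunit gene of the sodium pump, rose in replacement teeth. It held 40.6, 55.5, 123, 84.1 and 110 RPKM in replacement teeth and 18.9, 18.1, 26.4 and 31.0 RPKM in early growth libraries, a log2 difference of 1.71 ± 0.28 (adjusted p = 0.000721). The groups did not overlap. The other called genes of the 8 tested in the basolateral list were FXYD3 (-1.55, adjusted p = 0.0336) and FXYD1 (-1.39, adjusted p = 0.0196), small modulators of the pump, and both calls were lost after median-ratio scaling.

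Among the proteases that cleave the channel and their inhibitors, 2 of 7 tested fell in replacement teeth and none rose, beside 39.0% of all genes called lower and 4.89% higher. PLAU, the urokinase gene, held 5.68 ± 2.16 RPKM in replacement teeth and 18.7 ± 6.62 RPKM at early growth (SD), a log2 difference of -1.65 (adjusted p = 0.00108). ST14, which encodes matriptase, differed by -1.16 (adjusted p = 0.0152) and did not pass once libraries were scaled by median ratios. PRSS8, the gene of the activating protease prostasin, did not pass the filter and reached at most 0.359 RPKM in any library. In the corticosteroid list, 1 of 8 rose and 4 fell, beside the same shares. FKBP5, a chaperone gene induced by glucocorticoids in mammals, rose by 1.03 (adjusted p = 0.0146). NR3C1, the glucocorticoid receptor gene, fell by 1.01 (adjusted p = 0.00239), to 6.16 ± 0.852 RPKM in replacement teeth against 12.9 ± 1.67 RPKM at early growth. HSD11B2, whose product inactivates cortisol in aldosterone target cells, fell by 1.02 (adjusted p = 0.00368), and HSD11B1, whose product regenerates cortisol, fell by 1.19 (adjusted p = 0.00953), of which the HSD11B1 call did not hold with median-ratio scaled libraries. The mineralocorticoid receptor gene NR3C2 held 2.01 ± 0.282 RPKM in replacement teeth and 2.65 ± 0.369 RPKM at early growth (adjusted p = 0.13).

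**Figure D5:**
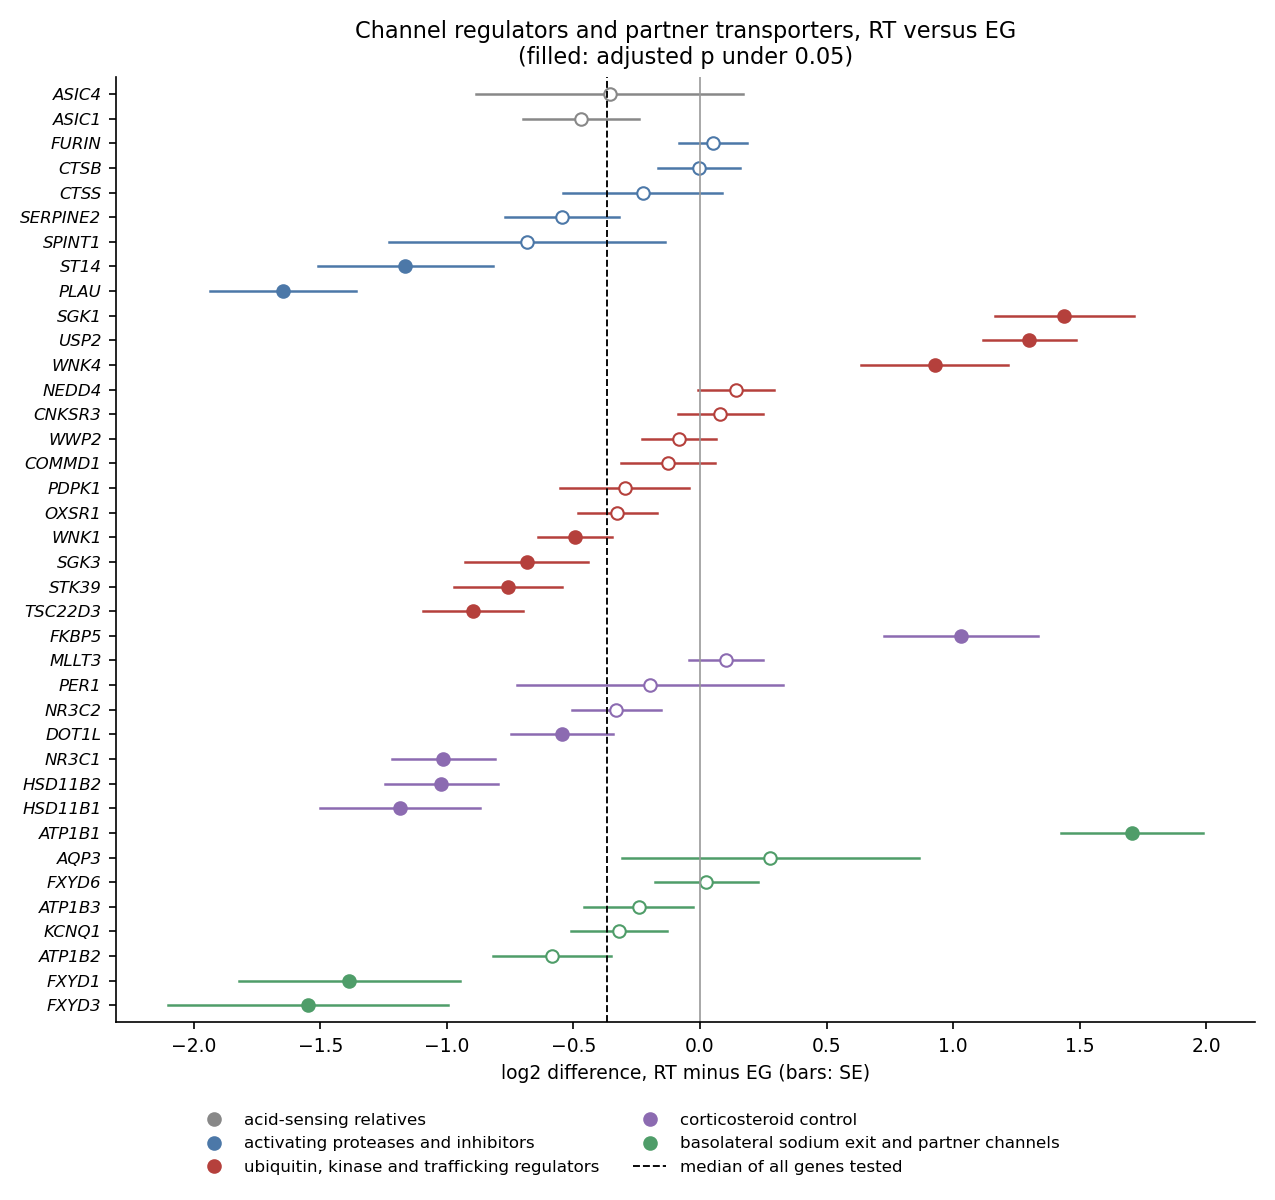
Log2 difference, RT minus EG, of the 38 tested regulators and partner genes, grouped by list, with SE bars; filled points have an adjusted p under 0.05 and the dashed line marks the median of all genes tested (-0.37). SGK1 (1.44) and ATP1B1 (1.71) lie to the right of 0 and PLAU (-1.65) to the left.

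The same lists were read for the earlier steps of the cycle. In the EG versus IS comparison 2 of 37 tested regulators were higher and none lower, which is 5.41% beside 2.15% of all genes, 1.64% higher and 0.512% lower. They were ASIC4, which passed the filter through early growth alone, and OXSR1 (0.61, adjusted p = 0.0473), a kinase gene of the chloride cotransport pathway. Leaving out single lamina libraries brought this count to 0 or 1 in 9 of 12 cases. In the EG versus PIS comparison 11 were higher and 6 lower, beside 42.9% and 7.58% of all genes, and with median-ratio scaled libraries 9 were higher and 8 lower, beside 32.3% of all genes called and 17.3% called higher. These counts include ASIC4 among the higher and ASIC1 among the lower. Both, and another of the lower genes, passed the filter only with the group where they were high. Their calls are therefore no independent ones. SPINT1, a Kunitz inhibitor gene of matriptase and related proteases, rose by 2.30 (adjusted p = 0.00375), and KCNQ1, a potassium channel gene, rose by 1.64 (adjusted p = 0.0001). FXYD1 fell by 2.40 (adjusted p = 0.00144) and FKBP5 fell by 1.18 (adjusted p = 0.0025).

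In the IS versus PIS comparison 9 of 37 regulators were higher and 2 lower, beside 22.7% and 2.25% of all genes, and with median-ratio scaled libraries 3 were higher and 5 lower, beside 11.7% of all genes called, 6.50% higher and 5.18% lower. SPINT1 differed by 1.92 (adjusted p = 0.0303), KCNQ1 by 1.19 (adjusted p = 0.00262) and HSD11B2 by 1.06 (adjusted p = 0.0135), all higher at initiation. The SPINT1 call was lost with scaled libraries (1.72, adjusted p = 0.0819), as were all 4 higher calls of the protease list. In the RT versus PIS comparison 10 of 38 were higher and 8 lower, beside 20.3% and 21.2% of all genes. The higher include USP2 and the lower include ASIC1. They passed the filter only through replacement teeth and only through pre-initiation lamina, so their calls are no independent ones. SGK1 rose by 1.70 (adjusted p = 8.16e-05), and FXYD1 fell by 3.79 (adjusted p = 3.11e-06).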

How the data were processed

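Gene-level RPKM values of 17 bulk RNA-seq libraries, deposited by the authors as 1 table with a row of total alignments, were used as they stood. TopHat2 2.1.0 and Partek 3 are named in the submitters' processing notes without a role, and no source used here gives the genome build, the annotation or the use of strand. Libraries were grouped by their titles, because the stage field of the labels reads pre-initiation for every library. Totals ran from 9667270 to 37747400 alignments per library, which sets the precision of low values. No libraries were duplicates.

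Values were tested as log2(RPKM + 0.5), a scale that understates the change of low genes, with limma 3.58.1 in R 4.3.3 (trend, Benjamini-Hochberg adjustment over all genes tested, calls at 0.05). Genes needed at least 1 RPKM in 3 libraries. SCNN1A and SCNN1D passed. SCNN1B and SCNN1G did not, and their values come from the planned fit without a filter, which was taken as their base after this was seen. Comparisons with replacement teeth used all 17 libraries, and those within the lamina used its 12. On simulated data with 200 changed genes the RT versus EG fit recovered 77% of genes changed by 1 and 95% of those changed by 2 on the log2 scale, at 12561 genes. The changed genes were drawn only from genes with a mean level above those of SCNN1A, SCNN1B and SCNN1G. These rates therefore do not cover the tested subunits or other low genes.

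The members, the gene lists and the rule for named genes were chosen with earlier results of these data known. The rule names the subunits, the genes with a symbol most correlated with each subunit that passed the filter (8 for SCNN1D, 4 for SCNN1A), the neighbours in the RefSeq gene table, up to 4 called genes with the greatest change per regulator list and comparison, and the enamel markers found. PHEX, EPCAM, KRT4, KRT14, SP7, COL1A1, BGLAP, IBSP, CDH1, TP63, DCN, NEFM, PRSS8, NR3C2, ASIC3, ASIC5 and the genes named as not listed fall outside it. A further listed regulator is left out and not reported here. Other pseudocounts (0.1 and 1), filters, scalings, weights, a replicate block and leaving out each library were tried. SCNN1B and SCNN1G in the unfiltered fit and the joint omission of replacement teeth 3 and 5 were chosen after seeing the data.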

Additional observations from a re-analysis of the deposited data

How the results depend on the processing

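Of 474 alternatives for 20 values, 454 kept direction and side of the threshold, and for values without a test the size. SCNN1A, RT versus EG, became 0.18 without replacement teeth 3 and 5 together. SCNN1B, IS versus PIS, became 0.0056 without PIS replicate 4 and 0.0064 without IS replicate 1, where its main value was -0.03. SCNN1A, RT versus PIS, kept 1.24 with only these groups fitted but missed the threshold. SCNN1G, RT versus EG, passed with median-ratio scaling (0.48), quantile normalization (0.53), array weights (0.47) and without replacement teeth 3 and 5 (0.51). SCNN1A, EG versus IS, passed with quantile normalization (1.01), array weights (0.98) and only these groups fitted (1.04). SCNN1A, IS versus PIS, passed with array weights (0.65). SCNN1D, which has no test, became 12.57 for RT versus PIS, 9.08 for EG versus IS and 7.36 for EG versus PIS with a pseudocount of 0.1, and 6.25 for EG versus IS with a pseudocount of 1. The cause of these shifts was not tested.

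Leaving out each library in turn gave RT versus EG differences of -0.74 to -0.18 for SCNN1A, 1.05 to 1.48 for SCNN1B, 0.24 to 0.45 for SCNN1G and 4.87 to 5.62 for SCNN1D. It gave EG versus IS differences of 0.84 to 1.18 for SCNN1A, EG versus PIS differences of 0.12 to 0.23 for SCNN1G and IS versus PIS differences of -0.069 to 0.0064 for SCNN1B. SCNN1G, EG versus PIS, passed without PIS replicate 3 (0.23, adjusted p = 0.0487).

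Whether replicate numbers pair the samples was not resolved. Of 19 same-number correlations 7 were over 0.1, and in no comparison did every sample correlate best with its own number. Over all comparisons 10 of 19 samples of the first named group and 5 of 19 of the second did so. For EG versus IS these were 3 of 3 and 2 of 3. With the replicate block SCNN1A, EG versus IS, passed at 1.0 (adjusted p = 0.0238), and no other subunit call changed.

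Genes called in RT versus EG numbered 5659, against 2022 with median-ratio scaling, 2136 with quantile normalization, 8799 with array weights, 3767 at a mean of at least 5 RPKM and 1532 without replacement teeth 3 and 5. In EG versus IS they numbered 273, against 940 with only these groups, 107 with all 17 libraries, 4015 with array weights, 119 at a mean of at least 5 RPKM and 69 to 439 with 1 library left out. In EG versus PIS 6404 became 3982 to 4083 and in RT versus PIS 5359 became 3309 under the settings that moved them by over 1.5 times. In IS versus PIS 3166 became 978 to 4850. Regulators lower in RT versus EG numbered 12, against 7 at that mean, 3 and 2 with median-ratio and quantile scaling and 4 without replacement teeth 3 and 5, where 5 higher became 2, and without replacement tooth 5 alone 3. Those higher in EG versus IS ran from 0 to 8 around 2, and those in IS versus PIS from 2 to 4 around 9 where they moved. At that mean 10 higher and 8 lower in RT versus PIS became 6 and 5, and 11 higher in EG versus PIS became 6. Shares of all genes called by direction are given only for the deposited and median-ratio values, so the other regulator counts stand without them. A mean of at least 5 RPKM gave no value for SCNN1A, SCNN1B or SCNN1G. Depth limits SCNN1B and SCNN1G, which had 0 to 6 and 1 to 14 reads per lamina library if the smallest step is 1 read.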
